A study of Mus musculus with 2 samples.

Results

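A set of 10 genes that mark stages of oligodendrocyte differentiation, namely Fyn, Enpp6, Gpr17, Tcf7l2, Itpr2, Neu4, Bmp4, Tmem163, Rras2 and Tns3, were followed through scRNA-seq of the adult mouse optic nerve. They are 10 of the 31053 gene rows in the data, were taken by name, and all 10 were present. The values came from 2 libraries of wildtype 129S1/SvlmJ mice with males and females pooled. The crush library came from 5 optic nerves with optic nerve crush (ONC), dissected at the site of injury 2 weeks later, and the control library from 5 uninjured nerves, both from mice described as 10 weeks old with ONC at 8 weeks. The sample labels instead give an age of 56 days and name the crush for both libraries, so the control library was taken from its title. Each condition was 1 library of pooled nerves, so the differences between conditions have no replicate check, no p-value was computed, and condition and library cannot be told apart. Barcodes carried the authors' type, which is oligodendrocyte precursor cell (OPC), newly formed oligodendrocyte (NFO) or Oligodendrocyte.

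Oligodendrocytes form when dividing OPCs leave the cell cycle and pass through a short premyelinating stage before they wrap axons. Some genes are known to peak at or near that stage and to be lost again in myelinating cells, so they serve as markers of recent differentiation in the adult nerve. Fyn is a Src family kinase that acts downstream of axonal contact and integrins, Gpr17 is a G protein-coupled receptor of committed precursors that restrains maturation, Tcf7l2 is a transcription factor of Wnt signalling that is needed for differentiation, and Bmp4 is a secreted ligand of BMP receptors. Enpp6 is a choline phosphodiesterase used as a marker of newly formed oligodendrocytes, Itpr2 an IP3-gated calcium channel, Neu4 a sialidase, Tmem163 a zinc transporter, Rras2 a small GTPase and Tns3 a tensin of integrin adhesions.

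The control library held 58 OPC, 44 NFO and 857 Oligodendrocyte barcodes, and the crush library held 17, 100 and 293. No barcode sequence was shared between the libraries. Levels are given as counts per 1000000 (CPM), the UMIs of a gene per 1000000 UMIs summed over a type in a library. The ranges in brackets are 95% intervals, which describe counting error and nothing else. The NFO barcodes summed to 94130 UMIs in the control library and 351851 in the crush library, with medians of 1259.5 and 1258.5 UMIs per barcode. Depth was uneven, since the 8 crush NFO barcodes of 8000 or more UMIs held 55.0% of the UMIs of their type, and the 2 such control barcodes held 25.4%. Malat1, a nuclear RNA, made up less than 0.5% of the UMIs in 63.6% of control and 77% of crush NFO barcodes, against 0% and 29.4% of OPC and 5.60% and 45.4% of Oligodendrocyte barcodes. RNAs of macrophages and microglia, a list of 12 genes, summed to 21.2 CPM in control NFO barcodes, where 2 of the 12 were found, and to 793 CPM in crush NFO barcodes, where 11 of the 12 were found and 83% of barcodes had a UMI. Their part in the results below was not tested. The 9 T or NK cell markers were at 0 UMIs in all 6 groups.

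The NFO barcodes carried RNAs of both neighbouring types. The 10 OPC markers summed to 6842 CPM in control and 4954 CPM in crush NFO barcodes, below the 14948 and 15162 CPM of OPC barcodes. The 10 myelin markers of the Oligodendrocyte list summed to 10347 CPM in control and 16936 CPM in crush NFO barcodes, below the 70072 and 59730 CPM of Oligodendrocyte barcodes. The higher crush sum was not shared by the whole list. Of 9 markers with at least 20 UMIs in NFO barcodes, Cldn11, Opalin and Cnp were 2-fold or more higher in crush, beside 15.5% of all genes. Mal, Mobp and Ermn were 2-fold or more lower, beside 6.86%. The stage genes themselves summed to 4919 CPM in control and 6585 CPM in crush NFO barcodes, against 2335 and 1344 CPM in OPC barcodes and 668 and 570 CPM in Oligodendrocyte barcodes. The authors named the NFO type by Fyn from these same cells, so levels by type are a description and carry no test.

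Fyn (ENSMUSG00000019843, chromosome 10 of GRCm38 from 39368855 to 39565381) stood at 1105 CPM (903 to 1339) in control NFO barcodes and at 2129 CPM (1979 to 2287) in crush NFO barcodes. OPC barcodes held 152 CPM in control and 247 CPM in crush, and Oligodendrocyte barcodes held 44.1 and 58.6 CPM. The order NFO, OPC, Oligodendrocyte was the same in both libraries, with no overlap of intervals between neighbours. Even so, 23 of the 44 control and 28 of the 100 crush barcodes of the NFO type had no Fyn UMI.

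Enpp6 (ENSMUSG00000038173, chromosome 8, 46986887 to 47096762) was not restricted to NFO barcodes. It stood at 404 CPM (286 to 554) in control NFO barcodes and at 524 CPM (502 to 547) in control Oligodendrocyte barcodes, with intervals that overlap. In the crush library the NFO level was 1194 CPM (1082 to 1313) and the Oligodendrocyte level 424 CPM (398 to 452), intervals that do not overlap. OPC barcodes held 1 UMI in each library, 5.84 and 8.50 CPM. A UMI of Enpp6 was found in 59.3% of 857 control and 37.9% of 293 crush Oligodendrocyte barcodes, and in 1 of 58 and 1 of 17 OPC barcodes, at median depths of 3060, 1268, 2290 and 4120 UMIs. Enpp6 thus parted both later types from OPC barcodes, and in control barcodes it did not part NFO from Oligodendrocyte.

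The promoter windows of Fyn and Enpp6 are shown because Fyn was low and Enpp6 high in Oligodendrocyte barcodes. Both run from 250 bases before to 50 bases after the RefSeq start in GRCm38.p6, 5′ to 3′ on the gene's strand, which is the plus strand for each, at chr10:39369549-39369848 for Fyn and chr8:46986637-46986936 for Enpp6. Capitals mark a match to the TCF/LEF motif CTTTGAT.
Fyn: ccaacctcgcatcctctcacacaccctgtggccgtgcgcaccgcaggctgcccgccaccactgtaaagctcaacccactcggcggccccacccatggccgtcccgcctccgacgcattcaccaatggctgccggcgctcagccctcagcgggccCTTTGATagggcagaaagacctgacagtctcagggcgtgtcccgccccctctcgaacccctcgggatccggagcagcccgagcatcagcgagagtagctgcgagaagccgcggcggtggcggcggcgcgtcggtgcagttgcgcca
Enpp6: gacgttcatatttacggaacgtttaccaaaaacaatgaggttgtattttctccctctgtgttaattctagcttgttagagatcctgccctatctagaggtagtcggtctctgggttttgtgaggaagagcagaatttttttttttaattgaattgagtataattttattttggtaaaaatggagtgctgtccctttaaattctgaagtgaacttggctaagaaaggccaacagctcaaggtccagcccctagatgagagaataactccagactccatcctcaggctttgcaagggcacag
The Fyn window is 69.0% G and C and has 31 CpG dinucleotides, and the Enpp6 window is 40.3% G and C with 4 CpG dinucleotides. Over 32851 such windows the median was 52.7% G and C and 7 CpG dinucleotides. Windows of 9 members, on chromosomes other than that of Gpr17, were searched on both strands for the TCF/LEF motif CTTTGAT, the SOX motif ACAAAG, the E-box CAGCTG and the MYRF motif CTGGCAC, each counted apart, with overlaps allowed. The TCF/LEF letters were found in 1 of the 9 members, Fyn, and in 3.73% of all windows. The SOX letters were found in 1 of the 9, at the second of the RefSeq starts of Tcf7l2, and in 18.7% of all windows. The E-box and the MYRF letters were in none of the 9 and in 16.3% and 5.01% of all windows. A match is a description of letters and says nothing of binding.

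Gpr17, Neu4 and Itpr2 were found in both OPC and NFO barcodes. Of these, Gpr17 was higher in NFO barcodes in both libraries, with ratios over OPC of 2.24 (1.68 to 2.98) and 2.76 (1.92 to 4.10). Gpr17 (ENSMUSG00000052229) stood at 1200 CPM (989 to 1443) in control and 776 CPM (687 to 874) in crush NFO barcodes, and at 537 CPM (433 to 659) and 281 CPM (193 to 394) in OPC barcodes. In Oligodendrocyte barcodes it was near 0, with 13 UMIs (3.13 CPM) in control and 1 UMI in crush. Neu4 (ENSMUSG00000034000, chromosome 1, 94020451 to 94028334) did not separate the earlier types, with 839 CPM (664 to 1046) in control NFO and 946 CPM (806 to 1103) in control OPC barcodes, and 406 CPM (343 to 479) and 400 CPM (294 to 531) in the crush library. Its ratio of NFO over OPC was 0.89 (0.67 to 1.17) in control and 1.02 (0.73 to 1.45) in crush, and Oligodendrocyte barcodes held 7 and 1 UMIs.

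Itpr2 (ENSMUSG00000030287, chromosome 6, 146108299 to 146502223) stood in a different order in each library, with a control interval that includes equal levels. In the control library it was 266 CPM (172 to 392) in NFO and 414 CPM (324 to 523) in OPC barcodes, a ratio of NFO over OPC of 0.64 (0.39 to 1.02). In the crush library it was 418 CPM (353 to 491) in NFO and 204 CPM (131 to 304) in OPC barcodes, a ratio of 2.05 (1.32 to 3.30). Oligodendrocyte barcodes held 11.6 and 22.2 CPM. The crush OPC values rest on 17 barcodes, and 7 of these with 8000 or more UMIs held 78.2% of the UMIs of that group.

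Bmp4, Tcf7l2 and Tns3 were highest in NFO barcodes in both libraries. Bmp4 (ENSMUSG00000021835, chromosome 14, 46383520 to 46390669) stood at 329 CPM (224 to 467) in control and 566 CPM (490 to 650) in crush NFO barcodes, at 46.7 and 25.5 CPM in OPC barcodes and at 0.964 CPM (4 UMIs) in control Oligodendrocyte barcodes, with 5 UMIs in crush. Only 1 of 857 control and 3 of 293 crush Oligodendrocyte barcodes had a Bmp4 UMI. Tcf7l2 (ENSMUSG00000024985, chromosome 19, 55741820 to 55933654) stood at 382 CPM (268 to 529) and 418 CPM (353 to 491) in NFO, at 70.0 and 34.0 CPM in OPC and at 14.7 and 6.52 CPM in Oligodendrocyte barcodes, and 44.4% of its control NFO UMIs came from 1 barcode. Tns3 (ENSMUSG00000020422, chromosome 11, 8431652 to 8664535) had the flattest profile of these, with 319 CPM (215 to 455) and 392 CPM (330 to 463) in NFO, 158 and 145 CPM in OPC and 61.7 and 44.7 CPM in Oligodendrocyte barcodes.

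Tmem163 and Rras2 were sparse and at low CPM outside NFO barcodes. Tmem163 (ENSMUSG00000026347, chromosome 1, 127486546 to 127679548) had 5 UMIs in control NFO barcodes, 53.1 CPM (17.2 to 124), and 70 UMIs in crush NFO barcodes, 199 CPM (155 to 251). It had 0 UMIs in all OPC barcodes, where the limit that a count of 0 allows (3 UMIs over the group) is 17.5 CPM in control and 25.5 CPM in crush, so the crush NFO level was at least 7.80-fold higher than the crush OPC level. Oligodendrocyte barcodes held 14 and 4 UMIs of Tmem163, 3.37 and 1.74 CPM. Rras2 (ENSMUSG00000055723, chromosome 7, 114046782 to 114117781) had 2 UMIs in control and 31 in crush NFO barcodes, 21.2 CPM (2.57 to 76.8) and 88.1 CPM (59.9 to 125). It had 1 and 0 UMIs in OPC barcodes, and 2.41 CPM (1.16 to 4.43) and 8.69 CPM (5.31 to 13.4) in Oligodendrocyte barcodes. In control the intervals of NFO and Oligodendrocyte barcodes overlap, so only the crush library set NFO barcodes apart for Rras2.

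**Figure D1:**
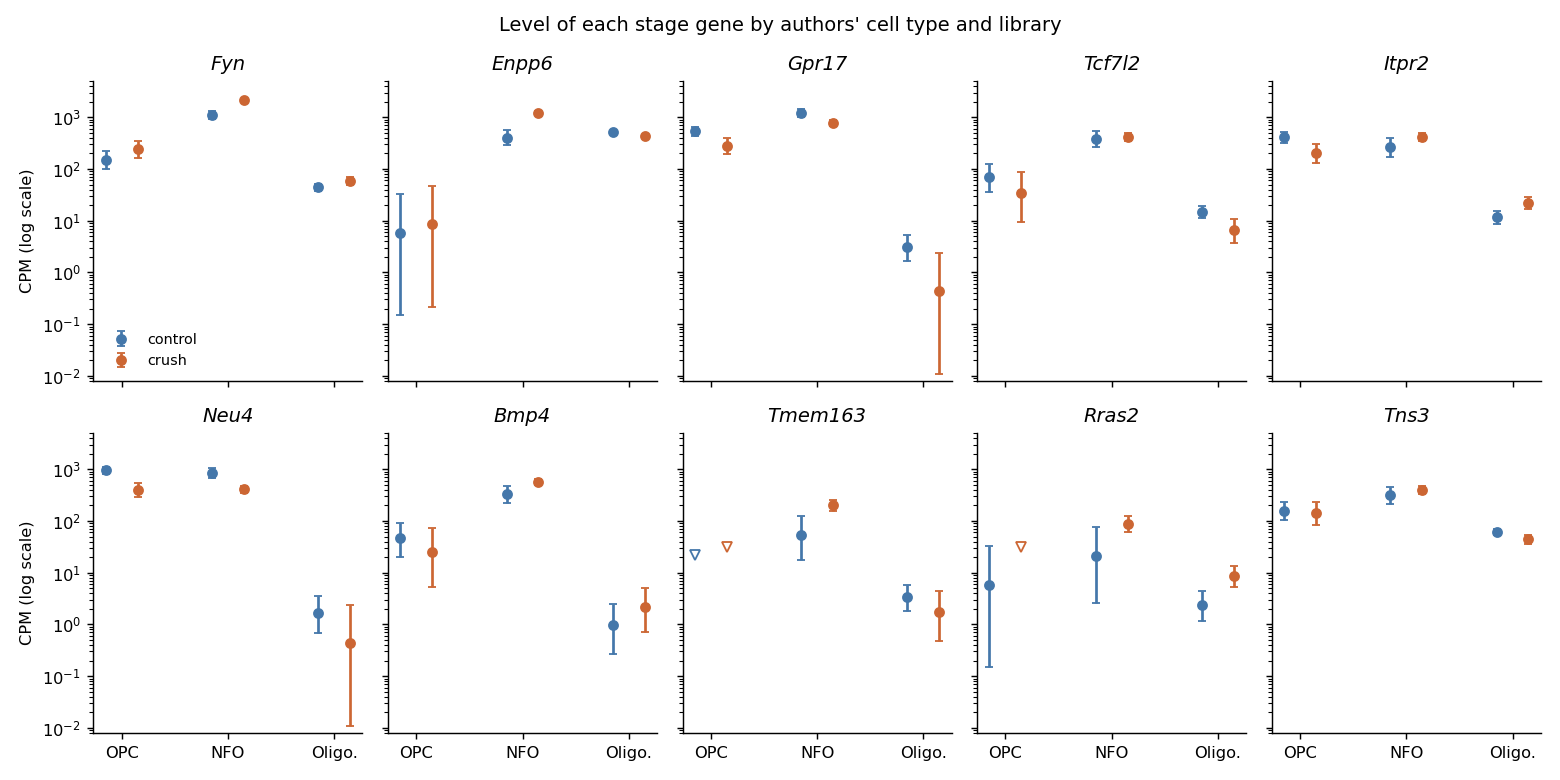
Level of each stage gene in CPM (log axis) in OPC, NFO and Oligodendrocyte barcodes of the control and crush libraries; bars are exact 95% Poisson intervals and open triangles mark the upper limit where no UMI was found. Enpp6 stays between 404 and 1194 CPM in NFO and Oligodendrocyte barcodes, while Gpr17, Neu4 and Bmp4 drop to under 4 CPM in Oligodendrocyte barcodes.

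Set against all genes, 7 of the 8 members with at least 20 UMIs over both types were 2-fold or more higher in control NFO than in control Oligodendrocyte barcodes, beside 31.1% of 9453 genes, and Enpp6 was the exception with a ratio of 0.77 (0.54 to 1.06). In the crush library all 10 passed that fold, beside 16.0% of 8943 genes, with Enpp6 lowest at 2.81 (2.50 to 3.16). Over OPC barcodes the fold was passed by 6 of 8 members in control, beside 11.9% of 2734 genes, and by 9 of 10 in crush, beside 13.4% of 4405 genes, with Neu4 outside it in both libraries and Itpr2 in control. Some of these passes were fixed by the minimum of 20 UMIs. A member with few UMIs in the other type reaches it only through NFO barcodes, and then passes the fold. Over OPC barcodes this holds for Tmem163 and Rras2, at 0 UMIs in crush, and for Enpp6, at 1 UMI in each library. Over Oligodendrocyte barcodes it holds for Gpr17, Neu4 and Bmp4 in both libraries. Such passes carry no weight beside the shares of all genes. These types were also defined from the same cells, so the shares are a description.

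Within NFO barcodes, the stage genes did not move together between the libraries. The ratio of crush over control was 2.96 (2.12 to 4.24) for Enpp6, 3.75 (1.53 to 11.9) for Tmem163 and 4.15 (1.06 to 35.8) for Rras2. By this count 3 of 10 members were at least 2-fold higher, beside 15.5% of the 4038 genes tested. Rras2 had 2 control and 31 crush UMIs, so it was tested only through its crush counts. A gene with 2 control UMIs passes the fold whenever it is tested, so the pass of Rras2 carries no weight beside that share. Neu4 was 2-fold or more lower, at 0.48 (0.37 to 0.65), and was 1 of 10 members beside 6.86% of genes. The median ratio of all genes tested was 1.10, a log2 value of 0.14, and the median of the 10 members was 1.65. Fyn was at 1.93 (1.57 to 2.39), Bmp4 at 1.72 (1.17 to 2.60) and Itpr2 at 1.57 (1.02 to 2.51), all with intervals above 1 but under the fold. Gpr17 was at 0.65 (0.52 to 0.81). Tcf7l2 was at 1.09 (0.75 to 1.62) and Tns3 at 1.23 (0.82 to 1.89), with intervals that include 1.

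Barcode depth changed several of these values. In NFO barcodes under 8000 UMIs the ratio of Enpp6 was 1.95 (1.35 to 2.88), that of Fyn 2.61 (1.97 to 3.51) and that of Bmp4 2.52 (1.23 to 5.81). Gpr17 then stood at 0.42 (0.30 to 0.58) and Neu4 at 0.39 (0.26 to 0.57), both past the 2-fold limit, so that 2 of the 9 members with enough UMIs were lower, beside 7.47% of 2168 genes, and 3 of 9 were higher, beside 14.8%. Tcf7l2 went from 1.09 to 0.57 (0.35 to 0.93) and Tns3 from 1.23 to 0.81 (0.49 to 1.34), and the interval of Tns3 includes 1 in both sets. Of the 32 control UMIs of Tcf7l2 in these barcodes 16 came from 1 barcode, and without it the ratio was 1.07 (0.59 to 2.05), an alternative chosen after seeing the data. Tmem163 was at 2.49 (0.95 to 8.24), an interval that includes 1. Without the control barcode with most of its UMIs it was at 4.08 (1.26 to 20.98). That removal kept all crush barcodes, so it could only raise the ratio and carries no weight beside the first interval. Rras2 had only 11 and 2 UMIs left. With each barcode given equal weight, as the mean of CPM over barcodes, Enpp6 was at 1.50, Tmem163 at 1.56 and Neu4 at 0.35.

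**Figure D2:**
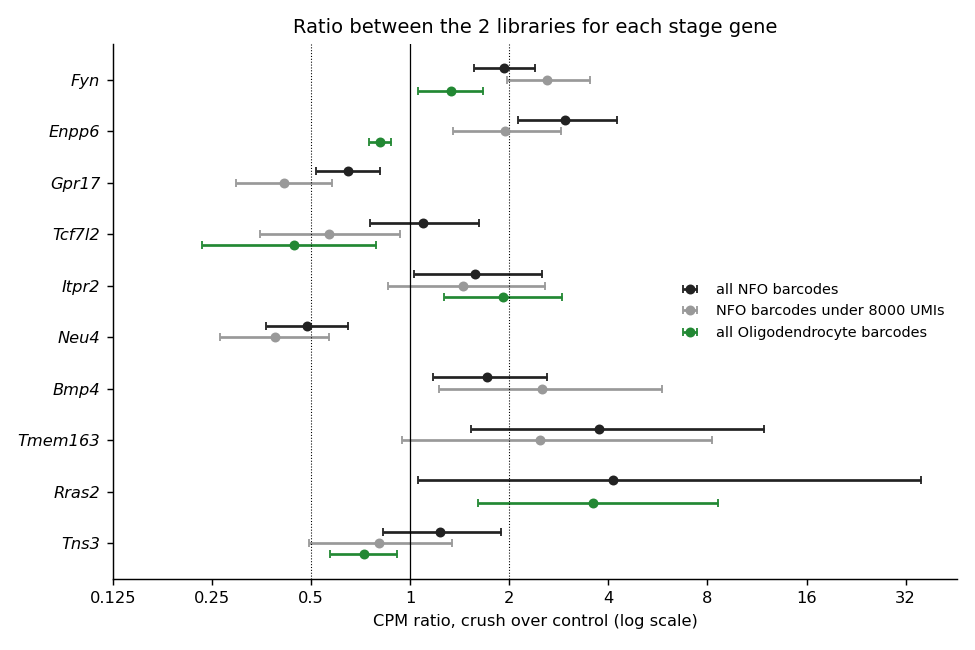
CPM ratio of crush over control (log axis) for each stage gene with at least 20 UMIs, in all NFO barcodes, in NFO barcodes under 8000 UMIs and in all Oligodendrocyte barcodes; bars are exact 95% conditional intervals and dotted lines mark ratios of 0.5 and 2. Neu4 and Gpr17 lie below 1 in both NFO sets, and Enpp6 lies above 1 in NFO barcodes (2.96) and below 1 in Oligodendrocyte barcodes (0.81).

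In OPC barcodes 5 members had enough UMIs for a ratio. Neu4 was at 0.42 (0.30 to 0.59) and Itpr2 at 0.49 (0.30 to 0.79), so 2 of 5 were 2-fold or more lower, beside 8.65% of 3155 genes, and 0 of 5 were 2-fold or more higher, beside 12.6%. Gpr17 was at 0.52 (0.34 to 0.79), Tns3 at 0.92 (0.47 to 1.75) and Fyn at 1.63 (0.92 to 2.87). By summed CPM, Neu4 and Gpr17 were therefore lower in the crush library in both types that express them. The median ratio of all genes in OPC barcodes was 1.13, a log2 value of 0.18. In OPC barcodes under 8000 UMIs Neu4 was at 0.34 (0.15 to 0.67) and Gpr17 at 0.67 (0.31 to 1.29), which includes 1. Neu4 was found in 77.6% of control and 82.4% of crush OPC barcodes and Gpr17 in 55.2% and 76.5%, at median depths of 2290 and 4120 UMIs. At 500 UMIs these shares were 37.1% and 21.5% for Neu4 and 23.1% and 16.8% for Gpr17.

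In Oligodendrocyte barcodes 6 members had enough UMIs. Rras2 was at 3.60 (1.61 to 8.62), from 10 and 20 UMIs, and was the 1 of 6 that was 2-fold or more higher, beside 7.72% of 10123 genes. Tcf7l2 was at 0.44 (0.23 to 0.79), the 1 of 6 that was 2-fold or more lower, beside 5.69%. Itpr2 was at 1.91 (1.27 to 2.90), Fyn at 1.33 (1.06 to 1.67), Enpp6 at 0.81 (0.75 to 0.87) and Tns3 at 0.73 (0.57 to 0.92). The Enpp6 ratio was 0.30 (0.21 to 0.40) in Oligodendrocyte barcodes under 8000 UMIs, where the crush level was 149 CPM against 506 CPM in control. Barcodes with less than 0.5% Malat1 held 54.6 CPM of Enpp6 in the crush library and 185 CPM in the control library, and the other barcodes held 446 and 530 CPM.

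The share of NFO barcodes with at least 1 UMI puts less weight on deep barcodes, and by it the libraries stood furthest apart for Fyn, Enpp6 and Neu4. Fyn was found in 47.7% (32.5 to 63.3) of control and 72% (62.1 to 80.5) of crush NFO barcodes, Enpp6 in 25% (13.2 to 40.3) and 49% (38.9 to 59.2), and Neu4 in 59.1% (43.2 to 73.7) and 31% (22.1 to 41.0). The intervals of Neu4 do not overlap, and those of Fyn and Enpp6 overlap at their ends. Gpr17 was found in 45.5% and 38%, Bmp4 in 18.2% and 25%, Tcf7l2 in 25% and 28%, Itpr2 in 25% and 34%, Tns3 in 25% and 33%, Tmem163 in 9.09% and 13% and Rras2 in 4.55% and 11%, all with overlapping intervals. With every barcode thinned to 500 UMIs, which left out 2 control barcodes, Fyn stood at 29.2% and 53.1%, Enpp6 at 13.7% and 26.5% and Neu4 at 35.0% and 11.5%. In types that should lack the gene, Neu4 was found in 0.583% of control Oligodendrocyte barcodes, Gpr17 in 1.05% and Bmp4 in 0.117%, at a median of 3060 UMIs, and Enpp6 in 1.72% of control OPC barcodes.

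**Figure D3:**
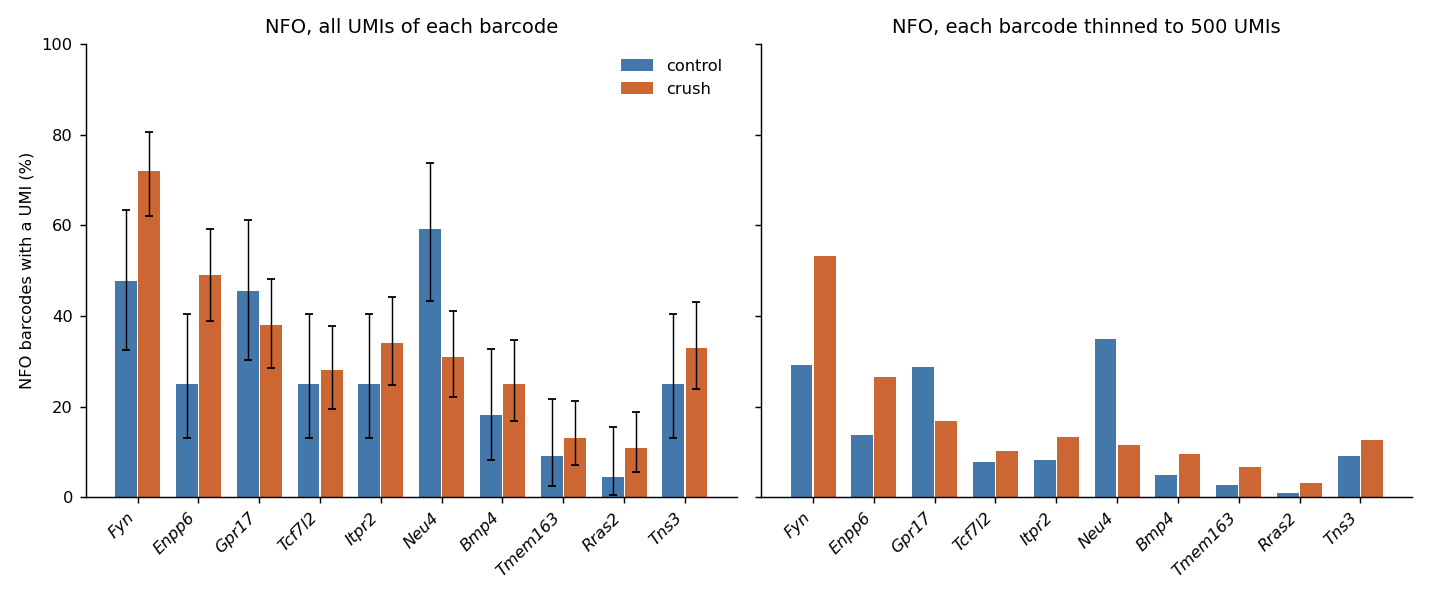
Share of NFO barcodes with at least 1 UMI of each stage gene in the control (44 barcodes) and crush (100 barcodes) libraries, with all UMIs and exact 95% binomial intervals on the left and as the expected share at 500 UMIs on the right. Fyn and Enpp6 are found in a larger share of crush barcodes and Neu4 in a smaller one, in both panels.

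Counted per barcode, the 9 members other than Fyn were found in similar numbers in both libraries. At least 2 of the 9 were found in 25 of 44 control NFO barcodes, 56.8% (41.0 to 71.7), and in 58 of 100 crush NFO barcodes, 58.0% (47.7 to 67.8). The share was 79.3% in control and 82.4% in crush OPC barcodes and 23.7% and 24.6% in Oligodendrocyte barcodes, at the depths given above. At 500 UMIs per barcode the NFO shares were 32.2% and 31.9%, against 26.2% and 15.3% for OPC and 1.04% and 0.378% for Oligodendrocyte barcodes. The largest number was 6 of 9 in a control and 9 of 9 in a crush NFO barcode, and 3 crush barcodes held all 9. Depth went with the number, since NFO barcodes under 1000 UMIs held at least 2 of the 9 in 42.9% of control and 27.8% of crush barcodes, and those over 3000 UMIs in 100% and 95.2%.

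The share also went with Malat1. At least 2 of the 9 were found in 16 of 16 control and 19 of 23 crush NFO barcodes with 0.5% or more Malat1, and in 9 of 28 and 39 of 77 NFO barcodes with less. Median depth was 2930.5 and 3214 UMIs in the first and 1060.5 and 1137 UMIs in the second, so depth and Malat1 moved together here and their part in the count was not tested. None of the 10 members, Fyn included, was found in 8 control and 18 crush NFO barcodes, at medians of 650.5 and 726.5 UMIs.

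**Figure D4:**
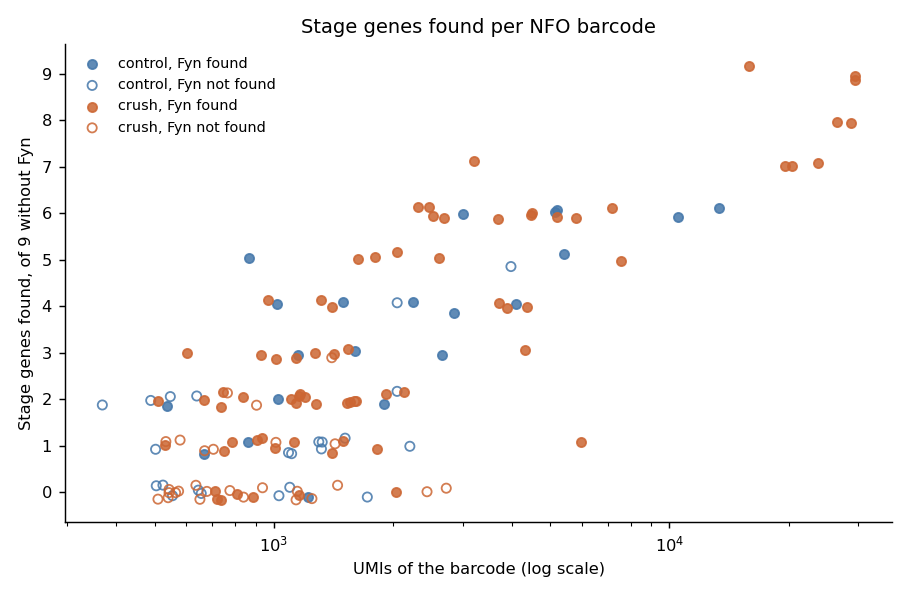
Number of the 9 stage genes other than Fyn with at least 1 UMI (vertical axis, points spread by up to 0.18 so that they can be seen) against the UMIs of each NFO barcode (log axis); filled points had a Fyn UMI. Barcodes with none of the 9 lie below 3000 UMIs in both libraries, and the barcodes with 7 or more of the 9 are all from the crush library.

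Co-detection within the same NFO barcode showed which stage genes were found together. In the control library 20 barcodes held Gpr17, and 18 of them held Neu4 (90%), 10 held Tcf7l2, 10 held Itpr2 and 0 held Tmem163. In the crush library 38 barcodes held Gpr17, of which 25 held Neu4, 26 Itpr2, 21 Bmp4, 29 Enpp6 and 4 Tmem163. Of the 25 crush barcodes with Bmp4, all 25 held Fyn, 21 held Gpr17 and 20 held Neu4, a share of Neu4 of 80% (59.3 to 93.2) against 14.7% (7.56 to 24.7) of the 75 barcodes without Bmp4. The crush barcodes with Gpr17 and with Bmp4 were also deeper than the type as a whole, with medians of 2952.5 and 4479 UMIs against 1258.5. Bmp4 and Neu4 were each found in 17 of the 21 crush barcodes over 3000 UMIs. Under 1000 UMIs each was found in 3 of 36. The part of depth in these shares was not tested.

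Tmem163 was found mostly with Enpp6, and under 8000 UMIs seldom with Gpr17 or Neu4. It was found in 4 control and 13 crush NFO barcodes, of which 4 and 10 held Enpp6, 0 and 4 held Gpr17 and 0 and 3 held Neu4. Among all 100 crush NFO barcodes 49% held Enpp6, 38% Gpr17 and 31% Neu4, so crush barcodes with Tmem163 were not far from the type for Gpr17 and Neu4. Of the 13, 3 had 8000 or more UMIs and held 42 of the 70 crush UMIs of Tmem163. Over both libraries and under 8000 UMIs, 11 of 14 barcodes with Tmem163 held Enpp6, 78.6% (49.2 to 95.3), against 40 of 120 without it. Of the same 14 barcodes 1 held Gpr17, 7.14% (0.181 to 33.9), and 0 held Neu4 (interval up to 23.2%), against 47 and 47 of the 120 without Tmem163. Over 3000 UMIs nearly all barcodes held Gpr17, namely 4 of 6 with Tmem163 (22.3% to 95.7%) and 23 of 23 without it (85.2% to 100%), intervals that overlap.

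Myelin RNA differed between barcodes with Tmem163 and no Gpr17 and barcodes with Gpr17 and no Tmem163, as a readout that the choice of barcodes did not use. The 10 Oligodendrocyte markers summed to 29688 CPM in the 13 NFO barcodes with Tmem163 and no Gpr17, over both libraries, and to 11932 CPM in the 54 with Gpr17 and no Tmem163. The medians over barcodes were 32621 and 13130 CPM. The 10 OPC markers ran the other way, at 1867 and 6319 CPM. Each library showed the same order, with 34868 and 9031 CPM of Oligodendrocyte markers in control, where Tmem163 rests on 4 barcodes, and 27769 and 12925 CPM in crush. Median depth was 1198 UMIs in the Tmem163 barcodes and 2425 UMIs in the Gpr17 barcodes.

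**Figure D5:**
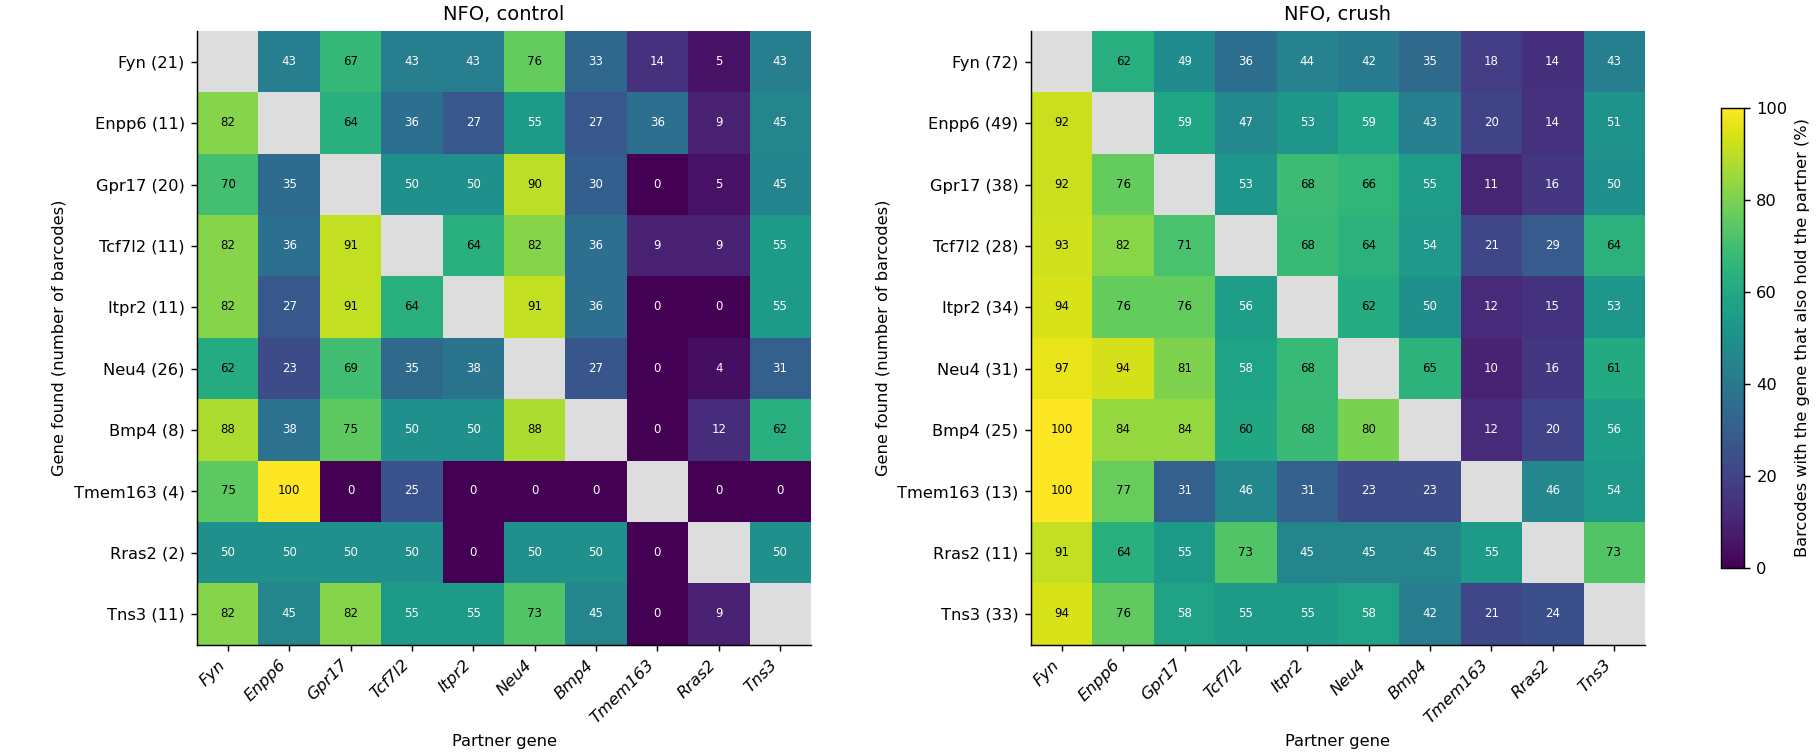
Share (%) of the NFO barcodes with the gene in each row, numbers of barcodes in brackets, that also had a UMI of the gene in each column, in the control and crush libraries. The Tmem163 row is high for Enpp6 in both libraries and lower for Gpr17 and Neu4 in control than in crush. The rows of Gpr17, Bmp4 and Itpr2 are high for Neu4.

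NFO barcodes with none of the 9 stage genes other than Fyn differed in other RNAs. Over both libraries 83 barcodes held at least 2 of the 9 and 34 held none, with medians of 1898 and 755 UMIs. Among 1686 genes with at least 50 UMIs, the largest ratios of the first set over the second were those of Mpzl1 (28.5, 5.08 to 1129), Frmd4a (24.5, 4.36 to 971), Chn2 (24.1, 4.28 to 954), Malat1 (23.5, 17.9 to 31.3) and Zfp365 (15.9, 2.82 to 631). All but Malat1 rest on 1 UMI in the second set. The smallest ratios were those of the metallothioneins Mt1 (0.044), Mt3 (0.046) and Mt2 (0.048), the tubulin-binding Stmn1 (0.048) and the peroxiredoxin Prdx6 (0.064). These values rest mainly on the crush library, which held 414 of the 417 Mt1 UMIs in barcodes with none of the 9, and 1 crush barcode of 2729 UMIs held 388 of them. Without that barcode, left out after seeing the data, the ratios were 0.58 (0.39 to 0.89) for Mt1, 0.16 for Mt3, 0.19 for Mt2, 0.047 for Stmn1 and 0.25 for Prdx6. In the control library alone Mt1 was at 1.50 (0.48 to 7.57) and Stmn1 at 0.14 (0.046 to 0.44). The macrophage and microglia list summed to 3559 CPM in the 25 crush barcodes with none of the 9 and to 439 CPM in the 58 with at least 2, and in control to 0 and 26.9 CPM. In crush NFO barcodes as a whole, 7 of the 12 genes had enough UMIs and all 7 were 2-fold or more higher than in control. They were led by Spp1 with 64 UMIs and by Lyz2 and Ctss with 47 each, while Cx3cr1, a microglial receptor, was the 1 gene of the list at 0. Control NFO barcodes held 2 UMIs of the whole list, so the 7 had enough UMIs only through their crush counts. Genes with so few control UMIs pass the fold almost whenever they have enough UMIs. The count of 7 therefore cannot be weighed against the 15.5% of all genes. A list of 6 astrocyte markers was also higher in barcodes with none of the 9 in both libraries, at 1160 CPM (777 to 1666) with none of the 9 and 301 CPM (243 to 370) with at least 2 in crush, and at 880 CPM (354 to 1812) and 310 CPM (196 to 465) in control, where the intervals overlap. OPC barcodes held 730 CPM of the same list in control and 451 CPM in crush, so these RNAs were not particular to astrocytes here. The OPC markers stood at 10178 CPM with none of the 9 and 6166 CPM with at least 2 in control, and at 5239 and 4912 CPM in crush. The myelin markers stood at 7791 and 11390 CPM in control and at 7438 and 17884 CPM in crush. The part of other cells' RNA, or of more OPC-like barcodes, in these differences was not tested.

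Genes that work with the members were taken from fixed lists and read against all genes tested in NFO barcodes, of which 15.5% were 2-fold or more higher in crush and 6.86% lower. Of 12 genes around Fyn, 9 had enough UMIs. The laminin-binding integrin subunit Itgb1 was 2-fold or more higher in crush at 4.64 (2.76 to 8.41) and the contactin Cntn1, a membrane partner of Fyn, lower at 0.33 (0.22 to 0.48), while the other 7, among them the tau gene Mapt (1.68) and the Fyn effector Arhgap35 (1.75), were between these limits. Around Bmp4, 5 of 17 genes had enough UMIs. The BMP receptor subunit Bmpr2 (0.48, 0.21 to 1.17) and the BMP target genes Id2 (0.27, 0.10 to 0.72) and Id3 (0.22, 0.10 to 0.48) were 2-fold or more lower. In control and crush Bmpr2 had only 10 and 18 UMIs, Id2 10 and 10, and Id3 16 and 13, the last in 6.82% and 4% of barcodes. The shared mediator Smad4 (6.42, 1.05 to 264) was higher from 1 and 24 UMIs. With 1 control UMI it passes the fold whenever it has enough UMIs. The secreted BMP inhibitors Nog and Grem1 had no UMI in NFO barcodes and Chrd had 2. Smad7, the remaining gene with enough UMIs, was at 1.83 (0.77 to 5.27) from 6 and 41 UMIs, an interval that includes 1. The median of the 5 with enough UMIs was 0.48, beside 1.72 for Bmp4 itself. In NFO barcodes under 8000 UMIs 0 of the 17 had enough UMIs.

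Around Tcf7l2, 5 of 17 Wnt pathway genes had enough UMIs and 1, the coreceptor Lrp6, was 2-fold or more higher at 2.14 (0.65 to 11.1), an interval that includes 1. The related factors Lef1 and Tcf7 had 0 and 1 UMIs in NFO barcodes, and the target and feedback gene Axin2 had 1 and 16. Of the 15 other premyelinating genes in the data, 11 had enough UMIs, 4 were 2-fold or more higher in crush, beside 15.5% of all genes, and 0 were lower, beside 6.86%. The 4 were the deacetylase Sirt2 at 2.58 (2.20 to 3.05), the PI3-kinase subunit Pik3r3 at 2.63 (6 and 59 UMIs), the kinesin Kif19a at 2.81 (1.02 to 10.8) and the scaffold Frmd4a at 3.06 (2.00 to 4.91). Bcas1, a marker of early myelinating cells, was at 1.62 (1.36 to 1.94), and Tnr, an extracellular matrix protein, at 0.90 (0.74 to 1.09). The OPC markers Pdgfra, Cspg4, C1ql1 and Cacng4 were 2-fold or more lower, 4 of 10 beside 6.86% of all genes, and none of the 10 was higher.

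Across the 6 groups of type and library, profiles of log2(CPM + 10) showed which members were most alike. Bmp4 and Tcf7l2 had a Pearson r of 0.99, Fyn and Bmp4 0.98, Gpr17 and Neu4 0.98, and Tns3 had 0.97 to both Bmp4 and Tcf7l2. The pair Itpr2 and Neu4 was at 0.97, Gpr17 and Itpr2 at 0.96, and Tmem163 and Rras2 at 0.95. The lowest values were among those of Enpp6, with r of -0.44 to Neu4, -0.35 to Itpr2 and -0.24 to Gpr17, between 0.067 and 0.25 to Fyn, Tcf7l2, Bmp4 and Tns3, and 0.66 and 0.64 to Tmem163 and Rras2. Among 9153 genes the closest profile to Fyn was that of Dynll2 (0.994), to Gpr17 that of Cyp2j6 (0.996), to Itpr2 that of Bcan (0.995), to Neu4 that of Gpr37l1 (0.996), to Bmp4 and to Tns3 that of Matn2 (0.992 and 0.993), to Tmem163 that of Kif19a (0.997), to Rras2 that of Samd4b (0.989), to Tcf7l2 that of Cbfb (0.990) and to Enpp6 that of Polr3e (0.994). These are correlations over 6 points that share 2 libraries and 3 types defined from the same cells, and with so many genes high values are found for any profile.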

How the data were processed

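Cells of the optic nerve were captured with the 10x Chromium system, 6000 cells loaded per library, and sequenced. Per the submitters' notes and the study's methods, the authors converted base calls with bcl2fastq 2.17.1.14, aligned to mm10 and counted UMIs with Cell Ranger 1.3, kept cells with at most 20% mitochondrial share, at least 200 genes and at most 150000 UMIs, drew equal numbers of cells per library, typed them by markers (Fyn for NFOs) and normalized them with Seurat 4.0.3. The deposited values are the natural log of 1 plus 10000 times a gene's UMIs over all UMIs of the barcode, for the oligodendrocyte lineage. A table of both libraries repeats the same values and was not used. Other cell types were not analysed here.

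UMIs were recovered by undoing the log and dividing by the smallest positive value of each barcode, and were whole within 0.001 in 100% of barcodes. The libraries held 4414834 (control) and 2771797 (crush) UMIs. CPM of summed UMIs have exact Poisson intervals, shares of barcodes exact binomial (Clopper-Pearson) intervals, and ratios of CPM exact conditional binomial intervals, all at 95% and for counting error only. Ratios were computed for every gene with at least 20 UMIs over both groups, and a ratio of at least 2 or at most 0.5 counted as past the fold. Shares at 500 or 1000 UMIs are expected values under draws without replacement, from barcodes of at least that depth. No test was run, since each condition is 1 library. Doublets were not called, and the authors' limit on UMIs was the only filter on them. The steps were tested on simulated data. The scripts ran in Python 3.11.15 (scipy 1.17.1, numpy 2.4.6, pandas 2.3.3). Of 31053 gene names 30506 matched GENCODE vM21, which gave the GRCm38 coordinates (counted from 1), and promoter windows came from RefSeq.

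The members and the gene lists were chosen with earlier results of these data known. Genes named beside the members are those of the lists, the 3 most similar profiles of each member (of which the closest is given) and the 5 largest and 5 smallest ratios between NFO barcodes with at least 2 and with none of the 9 members other than Fyn. The alternatives tried were equal weight per barcode, ratios centred on the median gene, thinning, barcodes under 8000 UMIs, at least 500 genes with at most 10% mitochondrial UMIs, Malat1 above and below 0.5%, removal of the barcode with most UMIs of a gene, minimums of 50 UMIs or of 1 UMI in each library, and at least 2 UMIs for detection.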

Additional observations from a re-analysis of the deposited data

Results flagged for a closer look

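Enpp6 pointed in opposite directions in the later types. Its ratio of crush over control was 2.96 in NFO barcodes (interval 2.12 to 4.24) and 0.81 in Oligodendrocyte barcodes (0.75 to 0.87), with both intervals off 1. The difference between the types was not tested, since each condition is 1 library. In barcodes under 8000 UMIs the ratios were 1.95 and 0.30.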

How the results depend on the processing

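No ratio past the fold changed direction under any alternative. Within NFO barcodes the count of members at least 2-fold higher went from 3 to 5 in barcodes with less than 0.5% Malat1 and to 5 without the barcode with most UMIs of each gene. Within Oligodendrocyte barcodes it went from 1 to 0 with equal weight per barcode, to 0 with at least 50 UMIs and to 2 with at least 1 UMI in each library. The share of NFO barcodes with at least 2 of the 9 members other than Fyn went from 56.8% (control) and 58.0% (crush) to 31.8% and 31% with at least 2 UMIs for detection, to 32.2% and 31.9% at 500 UMIs and to 100% and 82.6% with 0.5% or more Malat1, and in control to 73.7% under the filter of 500 genes and 10% mitochondrial UMIs and to 32.1% with less than 0.5% Malat1. The cause was not tested. Of the recomputed ratios 63 in NFO, 35 in OPC and 33 in Oligodendrocyte barcodes stayed within their counting interval, and 16, 0 and 14 moved beyond it. No paired analysis was possible because each condition is 1 library and the labels carry no replicate numbers. Depth limits Tmem163 and Rras2 most, with 5 and 2 UMIs in control NFO barcodes.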
